A study of Mus musculus with 7 samples.

Results

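Expression of 8 genes of lipid and sterol synthesis was followed in mouse gastrocnemius, a fast calf muscle, by RNA sequencing at 4, 6 and 8 weeks of age. The genes were Srebf1, Srebf2, Insig1, Acaca, Acacb, Fasn, Scd1 and Scd2, taken by their symbols from the 49568 gene symbols of the count table. Each of them was found in all 7 libraries and passed the filter on low counts, as did 14976 genes in all.

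The mice were C57Bl6/J by their labels and male by the methods of the study, and gave 2 libraries at 4 weeks, 2 at 6 weeks and a further 3 at 8 weeks. No treatment is given in the labels of any library, and none of the ages carries an engineered allele by its labels. The titles of the 8-week libraries, however, carry a mouse number and "Ctl", which the methods use for CreER-negative littermates of mice in a tamoxifen experiment, whereas the titles at 4 and 6 weeks do not. The sources do not say if the 8-week mice were such littermates, so that age and any such difference in breeding or treatment cannot be told apart at 8 weeks. That the libraries of an age came from separate mice is read from their titles.

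Sterol regulatory element-binding proteins (SREBPs) are transcription factors made as precursors in the membrane of the endoplasmic reticulum. When sterols are scarce the escort protein Scap carries them to the Golgi, where proteases release the part that enters the nucleus. Insig proteins hold the Scap and SREBP complex back when sterols are abundant. SREBP-1c, from Srebf1, acts mainly on fatty acid synthesis and responds to insulin and to liver X receptors, whereas SREBP-2, from Srebf2, acts mainly on cholesterol synthesis and uptake. Malonyl-CoA, made by the acetyl-CoA carboxylases, is the building unit of fatty acids and also an inhibitor of fatty acid entry into mitochondria, and in muscle this second role is thought to be the main one of the Acacb product. Fatty acid synthase makes palmitate, and the stearoyl-CoA desaturases turn saturated fatty acids into monounsaturated ones.

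Library totals were 30836057 to 41784144 counts, with 25.1% to 37.4% of them from mt-Rnr2, a ribosomal RNA of mitochondria. Levels are given as CPM, which are counts relative to the library total after TMM scaling. Comparisons are given as log2 fold changes from a quasi-likelihood fit in edgeR, with Benjamini-Hochberg adjusted p-values (over every gene tested) and a threshold of 0.05. Standard errors (SE) were derived from the fold change and its F statistic. The 95% intervals assume a normal spread with that SE, so that they are narrower than the F test, with its few degrees of freedom, would give. The 9 fast fiber markers summed to 76320 to 99820 CPM, which bears out fast skeletal muscle but does not tell gastrocnemius from other fast muscles. The 7 slow fiber markers summed to 264, 441 and 264 CPM in replicates 1, 2 and 3 at 8 weeks. They summed to 396 and 497 CPM at 4 weeks and 487 and 479 CPM at 6 weeks. The 18 immediate early and heat shock genes summed to 163.5, 375 and 167 CPM at 8 weeks, against 280.5 and 495 CPM at 4 weeks and 516 and 409 CPM at 6 weeks. In both lists replicates 1 and 3 at 8 weeks lay below every younger library, and replicate 2 lay within the younger range.

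Srebf1 and Srebf2 are shown at the level of sequence because Srebf1 passed as higher at both later ages against 4 weeks and Srebf2 did not. The Srebf1 gene lies on the minus strand of chromosome 11 (60199089 to 60222581 in GRCm38), and RefSeq gives it 3 promoter windows of 250 bases before to 50 bases after a start site. The most downstream start lies 12110 bases downstream of the first and is the one from which SREBP-1c is made. Its window is printed with that of Srebf2, on the plus strand of chromosome 15 (gene at 82147181 to 82205379), and with that of Fasn, on the minus strand of chromosome 11 (gene at 120805846 to 120824547), since these 3 held the matches of interest. The windows are 5′ to 3′ from RefSeq on GRCm38.p6, at chr11:60210422-60210721 (Srebf1, minus strand), chr15:82147019-82147318 (Srebf2, plus strand) and chr11:120824498-120824797 (Fasn, minus strand). Capitals mark matches to a liver X receptor element (the direct repeat GNCCG and TAACCC with any 4 bases between them) in the Srebf1 and Fasn windows and to a sterol regulatory element (TCACNCCA) in the Srebf2 window.
Srebf1: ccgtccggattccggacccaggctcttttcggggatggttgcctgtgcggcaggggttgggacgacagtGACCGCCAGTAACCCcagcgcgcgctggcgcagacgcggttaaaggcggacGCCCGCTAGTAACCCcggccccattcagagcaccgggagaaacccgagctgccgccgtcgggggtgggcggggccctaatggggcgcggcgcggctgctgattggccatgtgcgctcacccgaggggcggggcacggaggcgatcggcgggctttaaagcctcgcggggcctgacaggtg
Srebf2: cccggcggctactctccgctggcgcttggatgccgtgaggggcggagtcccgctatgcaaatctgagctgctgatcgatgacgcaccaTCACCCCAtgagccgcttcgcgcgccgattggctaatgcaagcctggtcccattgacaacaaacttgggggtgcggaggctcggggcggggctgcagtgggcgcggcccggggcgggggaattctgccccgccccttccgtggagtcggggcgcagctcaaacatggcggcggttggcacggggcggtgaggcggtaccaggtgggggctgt
Fasn: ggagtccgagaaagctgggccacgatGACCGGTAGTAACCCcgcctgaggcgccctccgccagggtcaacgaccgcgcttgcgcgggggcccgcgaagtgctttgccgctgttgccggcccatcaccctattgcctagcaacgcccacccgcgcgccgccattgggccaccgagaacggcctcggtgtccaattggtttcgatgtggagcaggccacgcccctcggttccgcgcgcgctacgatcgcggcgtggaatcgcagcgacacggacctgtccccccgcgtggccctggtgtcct
In the Srebf1 window the matches began at -181 and -130 from the start site, in the Fasn window the match began at -224, and in the Srebf2 window at -162. Both strands were searched. The sterol regulatory element letters were found in 4.36% of 32851 promoter windows and in 1 of the 6 members for which a window was matched. The liver X receptor element letters were found in 14 windows of the 32851 (0.0426%), but they were chosen with the Srebf1 promoter in view, so that its match follows from the choice. The counts were made per gene and do not tell the 3 starts of Srebf1 apart. The E-box CACGTG, found in 7.15% of windows, was matched in the Insig1 window at -101, and the CCAAT box, found in 37.4% of windows, was matched at 3 places in the Fasn window. A match is a run of letters and not a measured binding site.

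Per kilobase of exon, the members differed widely in level over the 7 libraries. Scd1 averaged 22.9 ± 20.5 CPM per kb (SD, n = 7) and Acacb 13.1 ± 4.1, and their ranges overlapped. Scd2 (3.78 ± 0.762), Srebf1 (2.93 ± 1.05), Insig1 (2.83 ± 0.266) and Fasn (2.36 ± 1.12) came next, each overlapping the one after it in this order. Acaca (1.07 ± 0.22) and Srebf2 (0.969 ± 0.176) were lowest and overlapped each other. The ranges parted at 2 places in the order, between Acacb and Scd2 and between Fasn and Acaca. The length used is that of all annotated exons of a gene over all its transcripts, 17074 bases for Acaca and 10947 for Fasn. The gap between Fasn and Acaca depends on these lengths, since their CPM overlapped (17.4 to 51.1 for Fasn and 14.3 to 25.8 for Acaca).

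At 6 weeks against 4 weeks, 2 of 8 members passed the threshold, Srebf1 and Acacb, both higher, whereas 6.9% of all genes tested passed in either direction and 3.15% were higher. At 8 weeks against 4 weeks, 3 of 8 passed, Srebf1, Acacb and Scd1, all higher, against 18.5% of all genes in either direction and 9.53% higher. No member passed at 8 weeks against 6 weeks by edgeR, DESeq2 or limma-voom, against 0.187% of all genes by edgeR, and 1 member (Scd1) had an unadjusted p under 0.05 by edgeR. For the change from 4 to 6 weeks minus that from 6 to 8 weeks no member passed by edgeR, DESeq2 or limma-voom, against 0.0935% of all genes, and 2 had an unadjusted p under 0.05. The ages did not overlap for 4 of 8 members at 6 weeks against 4 weeks, 5 of 8 at 8 weeks against 4 weeks and none at 8 weeks against 6 weeks, and for 58.3%, 49.1% and 28.5% of all genes. The median log2 fold change of the 8 members was 0.12, 0.56 and 0.20 in the 3 comparisons, beside -0.01, -0.01 and 0.02 for all genes tested. The comparisons at 6 and 8 weeks share the 4-week libraries.

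**Figure D1:**
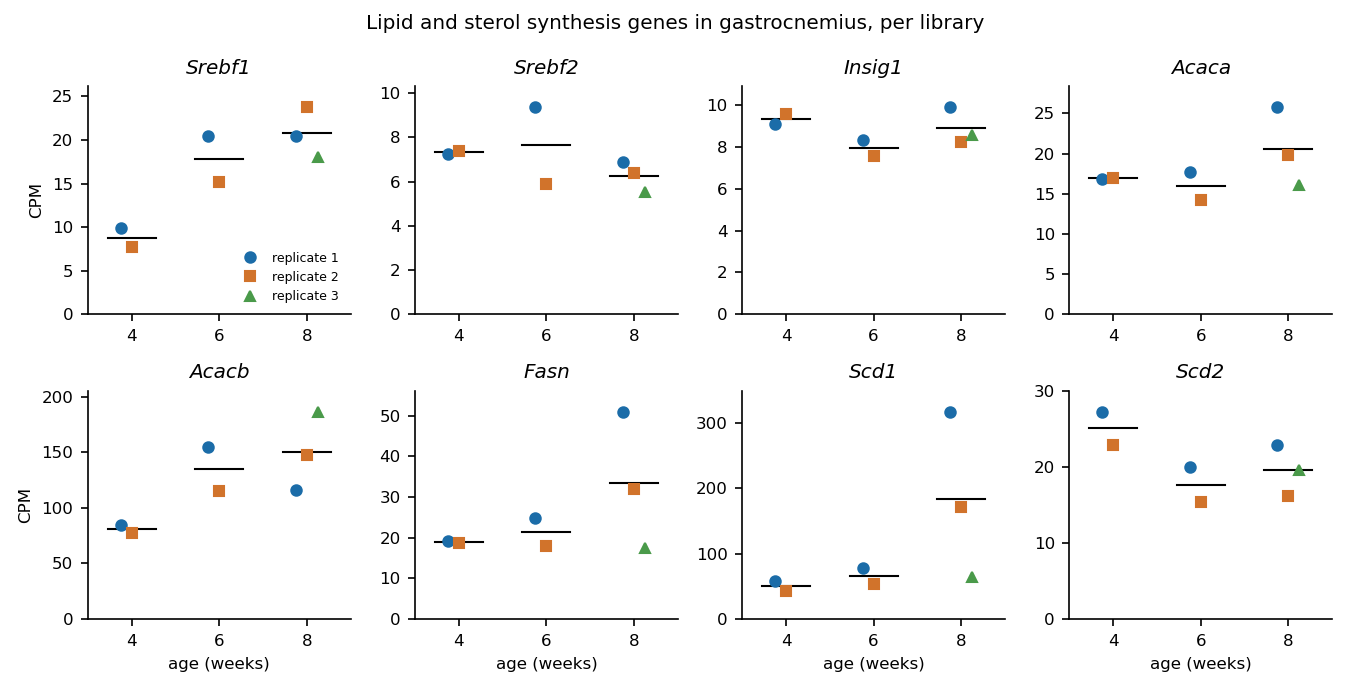
CPM (vertical axes, from 0) of the 8 members by age in weeks, with 1 point for each library and a line at the mean of each age. Srebf1 and Acacb lie higher in all libraries at 6 and 8 weeks than at 4 weeks, and the 3 libraries at 8 weeks spread over 64.0 to 318 CPM for Scd1.

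**Figure D2:**
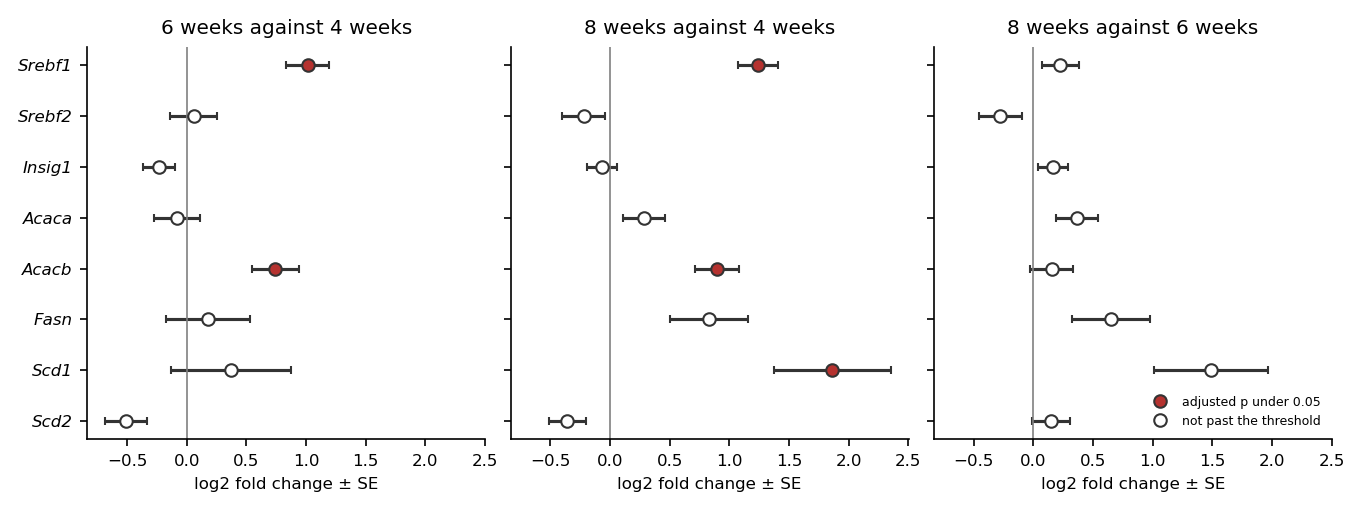
Log2 fold changes of the 8 members with standard errors (bars) in the 3 comparisons of ages. Filled points passed an adjusted p of 0.05, which were Srebf1 and Acacb at 6 weeks against 4 weeks, and Srebf1, Acacb and Scd1 at 8 weeks against 4 weeks.

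Srebf1, the SREBP-1 gene, had 20.4 and 15.1 CPM at 6 weeks and 20.5, 23.8 and 18.0 CPM at 8 weeks, against 9.85 and 7.76 CPM at 4 weeks. Every library at 6 and 8 weeks lay above both at 4 weeks, whereas the 6- and 8-week libraries overlapped. The log2 fold change was 1.01 (SE 0.179, edgeR adjusted p = 0.0117) at 6 weeks against 4 weeks and 1.24 (SE 0.167, adjusted p = 0.000886) at 8 weeks against 4 weeks. It was 0.23 (95% interval -0.08 to 0.54, edgeR adjusted p = 0.61) at 8 weeks against 6 weeks. The change between 4 and 6 weeks exceeded that between 6 and 8 weeks by 0.79 on the log2 scale, which did not pass (adjusted p = 0.321 by edgeR). The call at 8 weeks against 4 weeks held in all 15 alternatives. That at 6 weeks against 4 weeks was lost without 4 weeks replicate 2 (adjusted p = 0.12) and without 6 weeks replicate 1 (adjusted p = 0.128), over a range of 1.91e-05 to 0.128 for the 15 alternatives. In whole muscle, more or fewer cells of a type and more or less RNA per cell cannot be told apart. This holds for every member described here.

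Srebf2, the SREBP-2 gene, had 9.38 and 5.90 CPM at 6 weeks and 6.88, 6.41 and 5.52 CPM at 8 weeks, against 7.25 and 7.39 CPM at 4 weeks. The 4-week values lay inside the 6-week range and above those at 8 weeks. The log2 fold change was 0.06 (95% interval -0.33 to 0.44, edgeR adjusted p = 0.898) at 6 weeks against 4 weeks and -0.22 (-0.58 to 0.13, adjusted p = 0.431) at 8 weeks against 4 weeks. Per kilobase of exon, the ratio of Srebf1 to Srebf2 was 1.73 and 1.34 at 4 weeks, 2.78 and 3.28 at 6 weeks and 3.80, 4.74 and 4.17 at 8 weeks, with no overlap between ages. The ratio was not tested. At 8 weeks against 6 weeks the libraries overlapped for each of the genes and neither passed (edgeR adjusted p = 0.61 for Srebf1 and 0.582 for Srebf2). Between those ages 28.5% of all genes tested did not overlap.

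Insig1, whose product retains the Scap and SREBP complex and whose transcript is itself a known SREBP target, had 8.33 and 7.59 CPM at 6 weeks and 9.93, 8.22 and 8.57 CPM at 8 weeks, against 9.10 and 9.60 CPM at 4 weeks. The 6-week libraries lay below those at 4 weeks, and the 8-week libraries overlapped both. Its log2 fold change was -0.23 (95% interval -0.50 to 0.03, edgeR adjusted p = 0.33) at 6 weeks against 4 weeks and -0.07 (-0.31 to 0.17, adjusted p = 0.739) at 8 weeks against 4 weeks. These intervals leave out a doubling of the kind measured for Srebf1.

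The acetyl-CoA carboxylases make malonyl-CoA, Acaca in the cytosol and Acacb at the mitochondrial surface. Acacb had 154.9 and 114.9 CPM at 6 weeks and 116, 148 and 187 CPM at 8 weeks, against 84.2 and 77.0 CPM at 4 weeks. Every library at 6 and 8 weeks exceeded both at 4 weeks, and the 6- and 8-week ranges overlapped. The log2 fold change was 0.74 (SE 0.198, edgeR adjusted p = 0.0469) at 6 weeks against 4 weeks and 0.90 (SE 0.185, adjusted p = 0.00758) at 8 weeks against 4 weeks. Between 6 and 8 weeks it was 0.15 (95% interval -0.20 to 0.51, edgeR adjusted p = 0.781). The 6-week call lay close to the threshold and passed in 7 of 15 alternatives (adjusted p 0.00175 to 0.344). With all libraries kept, it was lost with library totals (edgeR adjusted p = 0.0533), with limma-voom and with a robust fit. It was also lost without 8 weeks replicate 2 (edgeR adjusted p = 0.0614). The same held without either library at 4 weeks or either at 6 weeks, which leaves 1 library at that age. Over the libraries left out, the log2 fold change was 0.51 to 0.94. The 8-week call passed in 14 of 15, and was lost without 4 weeks replicate 2 (0.084, in a range of 6.68e-06 to 0.084).

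Acaca had 17.8 and 14.3 CPM at 6 weeks and 25.8, 19.9 and 16.1 CPM at 8 weeks, against 16.9 and 17.0 CPM at 4 weeks. Both later ages overlapped the 4-week values, and replicate 1 was highest at 8 weeks. Its log2 fold change was -0.08 (95% interval -0.45 to 0.29, edgeR adjusted p = 0.839) at 6 weeks against 4 weeks and 0.28 (-0.05 to 0.62, adjusted p = 0.279) at 8 weeks against 4 weeks. Acacb stood above Acaca in all 7 libraries, both in CPM and per kilobase of exon. The ratio per kilobase was 8.84 and 8.04 at 4 weeks, 15.5 and 14.3 at 6 weeks and 7.98, 13.2 and 20.6 at 8 weeks. Its size depends on exon lengths taken over all transcripts, 17074 bases for Acaca and 9632 for Acacb. The longer Acaca length raises it above the ratio of CPM, equally in every library. The 6-week ratios exceeded those at 4 weeks, and the 8-week ratios spread over both.

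**Figure D3:**
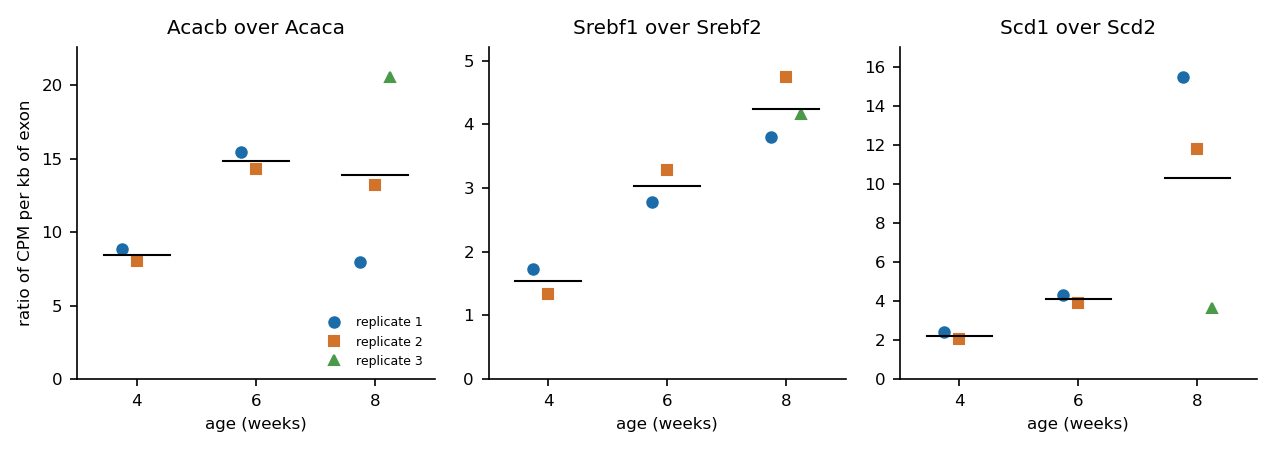
Ratio of CPM per kilobase of exon between paralogs (vertical axes, from 0) by age in weeks, with 1 point for each library and a line at the mean. The ratio of Srebf1 to Srebf2 does not overlap between the 3 ages, which was not tested. Those of Acacb to Acaca and of Scd1 to Scd2 spread widely at 8 weeks.

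Fasn, the fatty acid synthase gene, had 24.8 and 18.0 CPM at 6 weeks and 51.1, 31.9 and 17.4 CPM at 8 weeks, against 19.1 and 18.7 CPM at 4 weeks. Replicates 1 and 2 at 8 weeks lay above every younger library and replicate 3 below every one. The log2 fold change was 0.18 (SE 0.354, edgeR adjusted p = 0.815) at 6 weeks against 4 weeks and 0.83 (SE 0.327, adjusted p = 0.101) at 8 weeks against 4 weeks. Without 8 weeks replicate 3 the comparison of 8 weeks with 4 weeks gave 1.14 and passed (edgeR adjusted p = 0.00331), and without 8 weeks replicate 1 it gave 0.38 and did not (adjusted p = 0.314). Over 15 alternatives the adjusted p was 0.000825 to 0.325.

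Scd1, the main stearoyl-CoA desaturase gene of liver and fat, had 77.6 and 53.8 CPM at 6 weeks and 318, 171 and 64.0 CPM at 8 weeks, against 58.8 and 42.6 CPM at 4 weeks. All 3 libraries at 8 weeks exceeded both at 4 weeks, but replicate 3 lay within the 6-week range, and replicate 1 was 4.97 times replicate 3. The log2 fold change was 0.37 (SE 0.503, edgeR adjusted p = 0.709) at 6 weeks against 4 weeks, and 1.86 (SE 0.488, adjusted p = 0.0229) at 8 weeks against 4 weeks. The value for 8 weeks against 6 weeks was 1.49 (SE 0.479, edgeR adjusted p = 0.258). The 8-week call passed in 12 of 15 alternatives (adjusted p 1.71e-05 to 0.195). It was lost with a robust fit (0.195) and without 4 weeks replicate 1 (0.0816) or 2 (0.172), and the log2 fold change was 1.21 without 8 weeks replicate 1 and 2.27 without 8 weeks replicate 3. Without that replicate 3, the comparison of 8 weeks with 6 weeks also passed (log2 fold change 1.90, edgeR adjusted p = 0.0108, in a range of 9.33e-05 to 0.817).

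Scd2, a desaturase abundant in brain and peripheral nerve, had 20.0 and 15.4 CPM at 6 weeks and 22.9, 16.2 and 19.7 CPM at 8 weeks, against 27.3 and 23.0 CPM at 4 weeks. Both later ages lay below the 4-week range. The log2 fold change was -0.51 (SE 0.173, edgeR adjusted p = 0.099) at 6 weeks against 4 weeks and -0.36 (SE 0.156, adjusted p = 0.132) at 8 weeks against 4 weeks, and neither passed. Scd2 passed as lower in 3 of 15 alternatives at 6 weeks against 4 weeks (edgeR adjusted p = 0.0417 with only the ages compared and 0.0494 with no filter on low counts, in a range of 0.0133 to 0.417) and in 2 of 15 at 8 weeks against 4 weeks (adjusted p = 0.0202 with library totals, in a range of 0.0202 to 0.501). The ratio of Scd1 to Scd2 per kilobase was 2.40 and 2.07 at 4 weeks, 4.34 and 3.91 at 6 weeks and 15.5, 11.8 and 3.63 at 8 weeks. Scd3 and Scd4, the other mouse paralogs, had at most 0.0321 and 0.3185 CPM in any library and were not tested. Scd1 and Scd2 transcripts share a run of 147 bases, longer than the 100-base reads, but only 48 of the 4888 windows of 100 bases in Scd1 also occur in Scd2 (0.982%), so that few reads could belong to either.

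Markers of several other cell types also had their highest sums at 4 weeks. The 10 markers of Schwann cells, the glia of peripheral nerve, summed to 54.3 and 42.3 CPM at 6 weeks and 64.9, 58.3 and 62.0 CPM at 8 weeks, against 86.9 and 87.3 CPM at 4 weeks. Of the 10, 4 were under 1 CPM in every library. By edgeR 4 of the 10 were lower and none higher at 6 weeks against 4 weeks, and 2 were lower at 8 weeks against 4 weeks, among them Pmp22, a myelin protein of nerve. The 6 endothelial markers summed to 136 and 131 CPM at 6 weeks and 162, 165 and 137 CPM at 8 weeks, against 188 and 213 CPM at 4 weeks. In each comparison with 4 weeks 3 of 6 were lower, Pecam1, Cdh5 and Kdr at 6 weeks and Pecam1, Cdh5 and Esam at 8 weeks. The 6 erythroid markers summed to 71.6 and 102 CPM at 6 weeks and 92.0, 91.3 and 84.3 CPM at 8 weeks, against 165 and 138 CPM at 4 weeks, with 3 lower at 6 weeks and 5 at 8 weeks. The 8 macrophage markers summed to 81.1 and 92.3 CPM at 6 weeks and 92.5, 78.3 and 65.7 CPM at 8 weeks, against 111 and 123 CPM at 4 weeks, with 1 lower at 6 weeks and 3 at 8 weeks. The sums of all 4 lists were higher in both 4-week libraries than in every later one, and none of their markers passed as higher at either later age. The fibroblast and white adipocyte lists did not share this, with their highest sums (692 and 179 CPM) in 8 weeks replicate 1. At 4 weeks fibroblast markers summed to 631 and 648 CPM and white adipocyte markers to 153 and 152 CPM. Of all 14976 genes tested, 6.9% passed in either direction at 6 weeks against 4 weeks and 18.5% at 8 weeks against 4 weeks. Those lower were 563 and 1341 genes. The 2 of 10 Schwann cell markers called at 8 weeks against 4 weeks lie close to the share of all genes. The part of any of these cell types in the Scd2 values was not tested.

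The spread of Scd1, Fasn and Acaca among the 8-week libraries had 1 order, replicate 1 above 2 above 3. Srebf2 shared this order over a narrow range, which made 4 of 8 members, and 14.9% of all genes tested had it. Adipoq, the adiponectin gene of fat cells, had 20.9, 13.1 and 5.30 CPM in replicates 1, 2 and 3 at 8 weeks, and Plin1, a coat protein of the fat cell lipid droplet, had 6.34, 4.80 and 1.57 CPM. Of 10 white adipocyte markers tested, 9 had the same order. The 10 summed to 132 and 107 CPM at 6 weeks and 179, 153 and 83.4 CPM at 8 weeks, against 153 and 152 CPM at 4 weeks. Fabp4 alone gave 93.5 and 94.9 CPM of the sums at 4 weeks and 72.3, 70.7 and 45.0 CPM of those at 8 weeks. It was thus a large part of each sum, but the sums did not simply follow it. In 8 weeks replicate 1 the sum was above those at 4 weeks although Fabp4 was lower. Lep, the leptin gene, was the 1 marker of this list that was higher at 8 weeks against 4 weeks (log2 fold change 2.54, edgeR adjusted p = 0.0231), while Fabp4 and Aqp7 were lower. Of the white adipocyte markers 1, Adrb3, and of the brown adipocyte markers all 4 were under 1 CPM in every library. The order was not particular to fat cell markers. Of 8 macrophage markers 7, all but Cd68, had it, and their sums were 92.5, 78.3 and 65.7 CPM in replicates 1, 2 and 3. Fibroblast markers summed to 692, 613 and 537 CPM in the same libraries, with the order in 3 of 8. Acly, which makes cytosolic acetyl-CoA from citrate, shared the order with 27.8, 17.5 and 13.4 CPM. Srebf1, by contrast, was highest in replicate 2, and Acacb ran the opposite way with its highest value in replicate 3. The part of RNA from adipocytes, macrophages or fibroblasts in the values of Scd1, Fasn and Acaca was not tested.

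**Figure D4:**
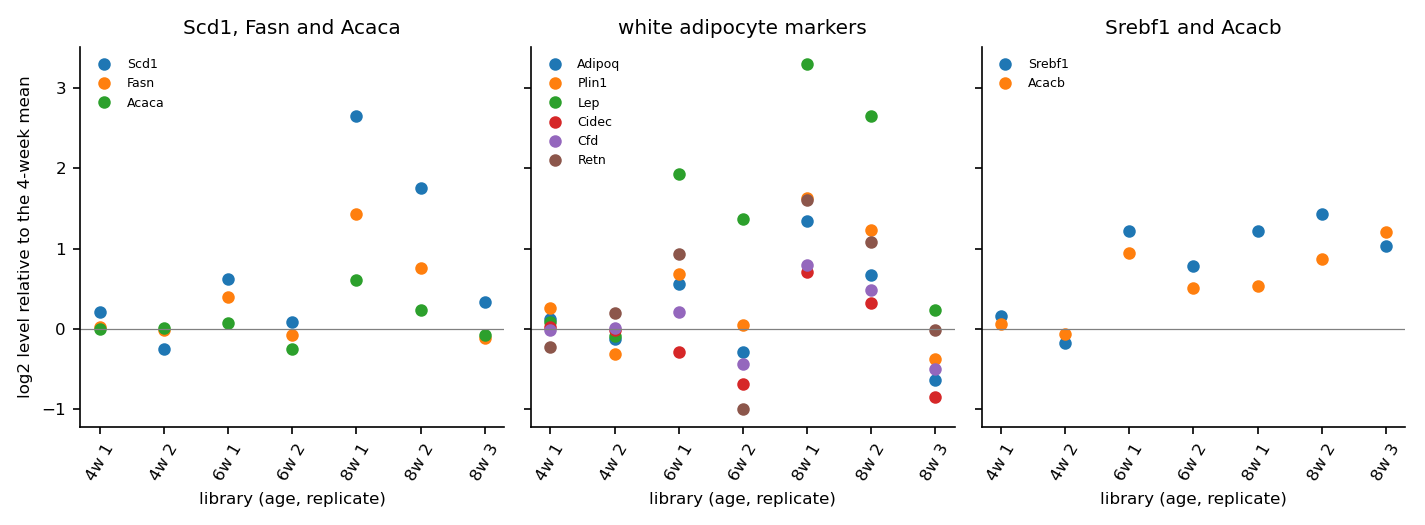
Log2 level of each gene in each library relative to its own 4-week mean, for Scd1, Fasn and Acaca (left), 6 white adipocyte markers (middle) and Srebf1 and Acacb (right), with the 7 libraries on the horizontal axis by age and replicate. At 8 weeks the genes of the left and middle panels are highest in replicate 1 and lowest in replicate 3, whereas Acacb is highest in replicate 3. The middle panel leaves out Fabp4, Aqp7, Pck1 and Adrb3 of the same marker list. Of these, Fabp4 and Aqp7 were lower at 8 weeks against 4 weeks, and Adrb3 had another order of replicates.

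Over the 7 libraries, in each of which all genes share the depth and the mix of cells, the log2 CPM of Fasn and Scd1 had a Pearson r of 0.967, and Acaca had 0.957 with Fasn and 0.913 with Scd1. Srebf1 had 0.847 with Acacb, 0.694 with Scd1 and 0.578 with Fasn, and Acacb had 0.0394 with Acaca. These describe 7 points and carry no test. Among 11803 genes averaging at least 1 CPM, those most like Fasn were Scd1, Acaca and Plin1 (0.95), and those most like Scd1 were Fasn, Mea1 and B230118H07Rik (0.965). Acaca was most like Sema6d (0.991), Cdo1 and Acly (0.961). Srebf1 was most like Hmga1 (0.994) and Gstm1 (0.993), and Acacb was most like Rapgef1 (0.997), Dopey2 and Ttc28. Srebf2 was most like Ccdc9 (0.967), Tnfrsf1b and 9430076C15Rik. Scd2 was most like Ugt8a (0.974), which makes the galactolipid of myelin, and then Calcrl and Mdfic. Insig1 was most like S100pbp (0.978), 2610203C20Rik and Pfkp.

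The other genes around these 8 were taken as lists. The counts of each list stand beside 6.9% of all genes tested that passed at 6 weeks against 4 weeks. At 8 weeks against 4 weeks that share was 18.5%, and at 8 weeks against 6 weeks it was 0.187%. Of 8 genes of SREBP processing and sterol sensing, none passed at 6 weeks against 4 weeks by edgeR, DESeq2 or limma-voom, with 2 at an unadjusted p under 0.05 by edgeR, and at 8 weeks against 4 weeks 1 was higher and none lower. Scap had a log2 fold change of 0.19 and Insig2 of 0.27 at 8 weeks against 4 weeks, and neither passed (edgeR adjusted p = 0.411 for Scap and 0.0964 for Insig2).

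Of 14 transcription factors and cofactors, Rxra, the retinoid X receptor that pairs with liver X receptors, was higher at 6 weeks against 4 weeks (log2 fold change 0.55, edgeR adjusted p = 0.0352) and at 8 weeks against 4 weeks (0.83, adjusted p = 0.00161). Its levels were 65.3 and 50.8 CPM at 6 weeks and 65.4, 73.1 and 73.7 CPM at 8 weeks, against 42.3 and 37.0 CPM at 4 weeks, with no overlap between either later age and 4 weeks. The paralogs Mid1ip1 and Thrsp, whose products regulate acetyl-CoA carboxylase and fatty acid synthesis, went opposite ways at 8 weeks against 4 weeks. Mid1ip1 had 9.31, 8.72 and 14.1 CPM at 8 weeks, against 4.67 and 6.00 CPM at 4 weeks (log2 fold change 1.003, edgeR adjusted p = 0.0127). Thrsp had 7.79, 7.15 and 4.62 CPM at 8 weeks, against 11.0 and 14.2 CPM at 4 weeks (log2 fold change -0.95, edgeR adjusted p = 0.00868). The liver X receptor genes Nr1h2 and Nr1h3 did not pass in either comparison.

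Of 22 genes of cholesterol synthesis, 1 was higher in both comparisons with 4 weeks and none was lower. This was Fdft1, squalene synthase, with 26.3 and 24.6 CPM at 6 weeks and 28.2, 32.3 and 26.6 CPM at 8 weeks, against 15.1 and 19.2 CPM at 4 weeks. Its log2 fold change was 0.57 at 6 weeks (SE 0.139, edgeR adjusted p = 0.0334) and 0.76 at 8 weeks (SE 0.129, adjusted p = 0.0029). The median of the list was -0.02 at 6 weeks against 4 weeks and -0.06 at 8 weeks against 4 weeks.

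Genes of sterol uptake, storage and export moved in both directions. Of 12 tested, 2 were higher and 1 lower at 6 weeks against 4 weeks, and 3 were higher and 3 lower at 8 weeks against 4 weeks, where 18.5% of all genes tested passed. Npc1, which moves cholesterol out of lysosomes, had 53.4 and 45.8 CPM at 6 weeks and 56.0, 60.3 and 78.0 CPM at 8 weeks, against 27.5 and 20.8 CPM at 4 weeks. Its log2 fold change was 1.04 at 6 weeks and 1.42 at 8 weeks (edgeR adjusted p = 0.00965 and 0.000445). Vldlr, the receptor for very low density lipoprotein in muscle and fat, had 248 and 167 CPM at 6 weeks and 293.5, 252 and 352 CPM at 8 weeks, against 130 and 109 CPM at 4 weeks. It was higher by 0.79 and 1.32 on the log2 scale (edgeR adjusted p = 0.0339 and 0.00103). Mylip, a ubiquitin ligase that degrades Vldlr, was higher at 8 weeks (0.82, edgeR adjusted p = 0.0011). Stard4, a sterol carrier, was lower at 6 weeks (-0.83) and 8 weeks (-0.71), and Lipa (-0.56) and Scarb1 (-0.49) were lower at 8 weeks against 4 weeks.

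Of 8 genes that handle acetyl-CoA and malonyl-CoA, 1 was higher in both comparisons with 4 weeks. Me1, the malic enzyme that supplies NADPH for fatty acid synthesis, had 59.1 and 48.7 CPM at 6 weeks and 62.1, 53.2 and 61.5 CPM at 8 weeks, against 33.0 and 31.2 CPM at 4 weeks. Its log2 fold change was 0.75 at 6 weeks (edgeR adjusted p = 0.00975) and 0.88 at 8 weeks (adjusted p = 0.000886), and unlike Acly it did not follow the order of replicates seen for Fasn. Acly had a log2 fold change of 0.26 at 8 weeks against 4 weeks (edgeR adjusted p = 0.48). Mlycd, which breaks malonyl-CoA down, had -0.18 (edgeR adjusted p = 0.249).

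Of 17 tested genes of fatty acid elongation, desaturation and activation, 2 were lower at 6 weeks against 4 weeks. These were Elovl5, an elongase of polyunsaturated fatty acids, and Hacd1, a dehydratase of elongation expressed in muscle. Elovl5 had 7.46 and 7.45 CPM at 6 weeks and 8.85, 8.16 and 7.99 CPM at 8 weeks, against 14.3 and 13.9 CPM at 4 weeks. Hacd1 had 41.3 and 51.1 CPM at 6 weeks and 39.9, 36.7 and 36.2 CPM at 8 weeks, against 70.3 and 68.9 CPM at 4 weeks. The log2 fold changes at 8 weeks against 4 weeks were -0.75 for Elovl5 (edgeR adjusted p = 0.0011) and -0.89 for Hacd1 (adjusted p = 0.000585). Hsd17b12 was also lower (-0.64) and Acsl6 higher (0.70) in that comparison, which made 1 higher and 3 lower.

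Of 17 tested genes of triglyceride synthesis and lipid droplets, 1 was higher at 6 weeks against 4 weeks, Pnpla2, the main triglyceride lipase (log2 fold change 0.73, edgeR adjusted p = 0.0438). In the comparison of 8 weeks with 4 weeks 2 were higher and 3 lower. Lpin1, a phosphatidate phosphatase, had 185, 219 and 281 CPM at 8 weeks, against 132 and 120.2 CPM at 4 weeks (log2 fold change 0.85, edgeR adjusted p = 0.00557), and like Acacb it was highest in replicate 3. Agpat1 was higher by 0.64, and Plin5 (-0.87), Agpat5 (-0.38) and Lpin3 (-0.51) were lower. Of the 98 tested genes of these 7 lists none passed at 8 weeks against 6 weeks by edgeR or limma-voom and 1 passed by DESeq2, with 18 at an unadjusted p under 0.05 by edgeR.

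The median log2 fold change at 8 weeks against 4 weeks was 0.20 for SREBP processing, 0.08 for the transcription factors, -0.08 for sterol uptake, 0.16 for acetyl-CoA handling, -0.13 for elongation and -0.01 for triglyceride synthesis, beside -0.01 for all genes tested.

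**Figure D5:**
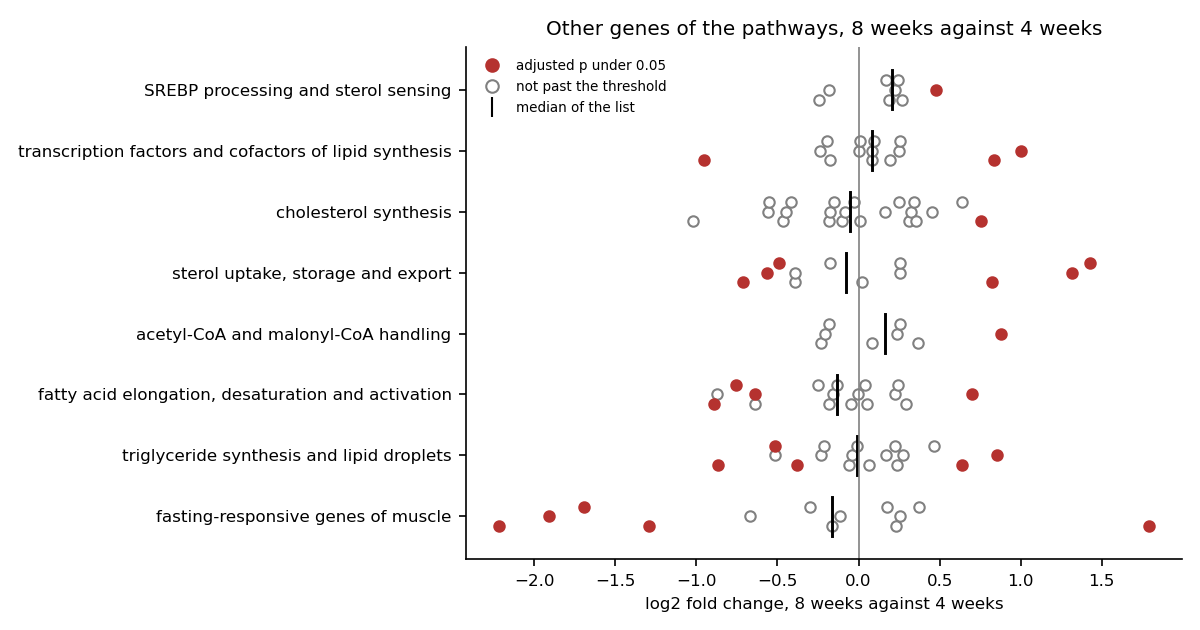
Log2 fold change at 8 weeks against 4 weeks of each tested gene in 8 lists around the members, with 1 point for each gene, filled where the adjusted p was under 0.05, and a bar at the median of the list. Most genes lie near 0 and the filled points fall on both sides.

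Because fasting lowers Srebf1 in many tissues, 13 genes of muscle that respond to fasting were read beside it. At 6 weeks against 4 weeks 3 were higher, Ddit4 (log2 fold change 1.02), Fbxo32 (0.98) and Foxo3 (0.47), and Mt2 was lower (-1.20). At 8 weeks against 4 weeks 1 was higher, Fbxo32 (1.79), and 4 were lower, among them Ddit4 (-1.91), Mt2 (-2.22) and Cebpd (-1.29). Ddit4 (-2.92) and Cebpd (-1.23) were lower at 8 weeks against 6 weeks. Of all genes tested, 6.9%, 18.5% and 0.187% passed in these comparisons, in the same order. The feeding state at dissection is not given in the labels, and its part in the Srebf1 values was not tested.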

How the data were processed

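RNA was sequenced from whole gastrocnemius of 7 mice after removal of ribosomal RNA, in a stranded library, as 100-base reads. Per the methods of the study, trimmed reads were mapped by STAR (GRCm38) and tallied by featureCounts for each gene name, on the strand of the gene, and the deposited counts were the values used. Sheets with the authors' own normalized values, fold changes and p-values were not used. No per-sample column was left out of the count table, and 26 symbols turned into dates were not named.

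Counts were fitted in R 4.3.3 with edgeR 4.0.16 (filterByExpr with a minimum count of 10, TMM factors, quasi-likelihood F test, 1 mean for each age, 4 residual degrees of freedom, common dispersion 0.0141), and p-values were adjusted over the 14976 genes tested. Calls are adjusted p-values under 0.05. The code was tested on simulated data. Alternatives were run with DESeq2 1.42.0, limma 3.58.1 and other settings, 15 in all. Exon lengths came from GENCODE 21 for mouse, with each exon base of a gene counted once over all its transcripts. Promoters came from RefSeq. Replicate numbers were given in accession order and did not pair the mice.

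The members and lists were chosen with earlier results of these data known. Genes named were the members, their partners Scap, Insig2, Acly and Mlycd and the paralogs Scd3 and Scd4, up to 3 higher and 3 lower called genes of each list in each comparison, and the 3 genes most like each member. Some genes that this rule covers are not reported here. Other genes (marker examples, Nr1h2, Nr1h3) were named after their values were seen. Of 21 triglyceride genes, 1 was not found under its symbol.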

Additional observations from a re-analysis of the deposited data

How the results depend on the processing

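With 2 or 3 libraries an age, leaving out 1 can leave an age with 1 library, which is then assumed to vary like the others. Of 360 log2 fold changes of members under the 15 alternatives in the 3 comparisons of ages, 349 had the sign of the value reported and 333 stayed on the same side of the threshold. Scaling by library totals shifted all genes at 8 weeks by a median of -0.19 against 4 weeks and -0.18 against 6 weeks on the log2 scale, and split the calls at 8 weeks against 4 weeks into 438 higher and 1942 lower, beside 1427 and 1341. The DESeq2 Wald test split those at 6 weeks against 4 weeks into 622 and 471, beside 471 and 563.

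At 6 weeks against 4 weeks, 1 member passed with library totals, limma-voom or a robust fit, instead of 2, 3 with no filter on low counts or only the ages compared, and 0 to 2 without 1 library. At 8 weeks against 4 weeks 4 passed with no filter or library totals and 2 with a robust fit, instead of 3, and 1 to 4 without 1 library. For 8 weeks against 6 weeks 1 member passed with no filter on low counts, and 0 to 1 without 1 library. None passed for the difference between the steps without 1 library, nor by edgeR with all of them, where 2 had an unadjusted p under 0.05. Of all genes, 530 passed at 6 weeks against 4 weeks with library totals and 1826 with only the ages compared, beside 1034. At 8 weeks against 6 weeks 93 passed with library totals, 232 with no filter, 163 with DESeq2 and 47 with a robust fit, beside 28. For the difference between the steps 39, 249, 147 and 27 passed under the same settings, beside 14. Without 1 library the genes called ranged from 50 to 1584, 786 to 2541, 10 to 77 and 4 to 137 in these 4 comparisons.

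Replicate numbers did not pair the libraries: the deviations of same-numbered libraries of different ages correlated at -0.0927 to 0.0428. A replicate block, in which 8 weeks replicate 3 has no partner and drops out of the contrasts, gave 3 members at 6 weeks against 4 weeks, 6 at 8 weeks against 4 weeks, 2 at 8 weeks against 6 weeks and 1 for the difference between the steps, with 107 genes in all at 8 weeks against 6 weeks and 185 for that difference.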
